A study of Mus musculus with 12 samples.

Results

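A set of 8 genes with catalogue names was followed here in mature donor CD8 T cells with and without TCF-1, the transcription factor encoded by Tcf7. The genes are Gm45315, Gm18194, Hmgb1-ps3, Gm46432, Gm13408, Gm28438, Gm9025 and BC024063, which is 8 of the 35817 gene symbols found in the deposited tables. Each was chosen because its level had differed between the genotypes before or after transplant. For Gm9025 and Gm28438 the pre-transplant stage gave the smaller p, and for the other 6 the post-transplant stage did, so values at that stage describe the choice and carry no test. The stage behind each choice was not given, so the stage with the smaller p was taken as the one used. The stage called not used below is thus the one with the larger p. In M21, the mouse GENCODE gene annotation used here, 7 are pseudogenes and BC024063 is annotated as protein coding.

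The 12 RNA-seq libraries form 4 groups of 3, from WT and TCF-1 cKO donors of C57BL/6 background, each before transplant and at day 7 after transplant. The TCF-1 cKO donors carried a floxed Tcf7 with CD4cre, a Cre driver that becomes active in thymocytes and therefore acts in both CD4 and CD8 T cells. The methods name B6-Ly5.1 or C57Bl/6J mice as WT donors, and the labels do not say which was used for a library. Donor CD8 T cells were sorted from spleen before transplant. Donor T cells were injected with WT bone marrow into irradiated BALB/c recipients, and donor CD8 T cells were sorted again from the recipients' spleens. The sequencing methods name CD3 T cells as those transplanted, while a figure legend names sorted CD8 T cells. The labels do not say whether the libraries of a group came from separate mice. The p-values therefore measure the spread between these libraries, which may be technical.

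A processed pseudogene is a copy of a spliced messenger RNA that was written back into the genome, and an unprocessed pseudogene is a copied stretch of DNA. Many lie far from the gene they were copied from and keep nearly all of its sequence. Short reads from the parent gene and from its copies can then be alike. Kallisto, the program the authors used, matches reads to transcripts through short words of sequence and divides a read that fits several transcripts among them by an estimate, so a count for such a copy is a share of a common pool and need not be RNA made at the copy's own locus.

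Tcf7 itself was at 56.8, 78.9 and 97.1 CPM (counts scaled to a library total of 1000000) in TCF-1 cKO before transplant and at 152, 115 and 205 CPM in WT. Post-transplant it was at 9, 9.48 and 9.31 CPM in TCF-1 cKO and at 17.2, 12.1 and 6.89 CPM in WT. The library labelled WT replicate 3 post-transplant was thus below all TCF-1 cKO libraries of its stage, and results of that stage are also given without it. Library totals lay between 4520270 and 9577076 estimated counts in the pre-transplant TCF-1 cKO group and between 18184814 and 32657005 in the other groups, and 3 counts correspond to 0.0922 to 0.667 CPM. All 6 markers of CD8 T cells were detected at both stages. In the pre-transplant libraries 6 B cell markers summed to 9070 to 16600 CPM against 631 to 1440 CPM for the CD8 T cell markers, and post-transplant to 228 to 467 CPM against 3540 to 5460 CPM. The sum of 6 erythroid markers was 4460 to 26400 CPM pre-transplant and 205 to 1190 CPM post-transplant. The pre-transplant libraries, though sorted as CD8 T cells, thus also held RNA with markers of other cell types. All 6 CD8 T cell markers were lower in every pre-transplant TCF-1 cKO library than in every WT library, and the part of this makeup in the values below was not tested. A label of TCF-1 cKO replicate 2 post-transplant names CD4 T cells, but 4 CD4 T cell markers summed to 3.82 to 8.98 CPM in the 3 libraries of that group, against 4590 to 5460 CPM for the CD8 T cell markers.

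The 8 genes lie on 6 chromosomes of the GRCm38 build, and Hmgb1-ps3 is the sole member on the chromosome of Tcf7. Tcf7 spans chr11:52252371-52283014 on the minus strand. Hmgb1-ps3 (ENSMUSG00000081455) spans chr11:63846183-63846818 on the minus strand, 11.6 Mb away. Gm45315 (ENSMUSG00000109925, chr7:12797529-12797861, plus strand) lies wholly inside Gm18194 (ENSMUSG00000109724, chr7:12795723-12799164, minus strand), and both lie within the span of the zinc finger gene Zscan18. The SMART-Seq HT and Nextera XT kits do not mark strand, so reads from Gm45315 and from the same stretch of Gm18194 cannot be told apart. Gm46432 (ENSMUSG00000114827, chr13:84281179-84281816, minus strand) lies within the span of Tmem161b, and Gm9025 is 27.6 Mb further along the same chromosome (chr13:111882393-111884177, minus strand, with 2 gene identifiers, ENSMUSG00000082433 and ENSMUSG00000114429). Gm13408 (ENSMUSG00000081992, chr2:34564999-34565796, plus strand) lies within the span of Mapkap1. BC024063 (ENSMUSG00000112160, chr10:82083353-82111216, plus strand) sits between the zinc finger gene Zfp873 and AU041133. Gm28438 (ENSMUSG00000101939, chr1:24612775-24613119, minus strand) has further unprocessed pseudogenes 75 and 70 bases away, Gm10222 and Gm28437.

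Every member shares sequence with another gene, and the words compared were all stretches of 31 bases, the default length of Kallisto. Of the members, 4 are copies of Hmgb1 or overlap such a copy. Hmgb1 (chr5:149046702-149184489) encodes a DNA-bending chromatin protein that also acts as an alarm signal outside the cell. Gm13408 is a copy of the Rps3a genes, which encode a protein of the small ribosomal subunit. Gm28438 is a nuclear copy of mt-Nd3 (chrM:9459-9806), a mitochondrial gene for a subunit of respiratory complex I. BC024063 shares most words with Gm3055 (chr10:81742821-81771161) and Zfp781 (chr10:81901911-81930480) on its own chromosome.

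The stretches printed next show how few bases separate a copy from its coding relative. They come from the M21 transcripts, are written 5′ to 3′, and were picked as the 60 aligned bases with the most differences, with capitals at each base that differs within the pair. The stretches are bases 1 to 60 of Gm28438 (chr1:24613060-24613119, minus strand), 274 to 333 of Gm45315 (chr7:12797802-12797861, plus strand), 556 to 615 of Gm46432 (chr13:84281202-84281261, minus strand) and 186 to 245 of Gm13408 (chr2:34565184-34565243, plus strand).
Gm28438: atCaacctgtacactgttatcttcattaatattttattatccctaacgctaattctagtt
mt-Nd3: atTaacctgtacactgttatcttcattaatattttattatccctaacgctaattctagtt
Gm45315: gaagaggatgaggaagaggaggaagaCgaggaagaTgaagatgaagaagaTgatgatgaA
Hmgb1: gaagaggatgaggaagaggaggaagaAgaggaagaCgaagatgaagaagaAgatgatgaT
Gm46432: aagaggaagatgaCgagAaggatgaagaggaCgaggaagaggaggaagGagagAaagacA
Hmgb1: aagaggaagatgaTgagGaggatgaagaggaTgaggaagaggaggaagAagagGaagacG
Gm13408: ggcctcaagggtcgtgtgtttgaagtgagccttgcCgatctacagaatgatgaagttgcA
Rps3a1: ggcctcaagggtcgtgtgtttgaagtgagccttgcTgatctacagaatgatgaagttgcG

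Over its whole length of 345 bases Gm28438 differs from mt-Nd3 at 1 base, the capital near its start. Gm45315 is identical to Hmgb1 at 328 of 333 bases and to the opposite strand of Gm18194 at all 333. Hmgb1-ps3 matches Hmgb1 at 99.1% of its aligned bases, Gm46432 at 96.1%, Gm13408 matches Rps3a1 at 98.9%, and BC024063 matches Gm3055 at 98.5%. The best single alignment of the 3442-base transcript of Gm18194 to Hmgb1, on the opposite strand, held 426 bases, with 99.3% identity. Gm18194 shares 594 words with Hmgb1, so the sequence they share goes beyond this alignment. In M21, no word of Gm45315 is its own, since all 303 also occur in Gm18194. Gm28438 has 3 own words of 315, Hmgb1-ps3 has 50 of 606 and Gm13408 has 124 of 768. The others have more words of their own, 282 of 608 in Gm46432, 778 of 2668 in BC024063, 539 of 1577 in Gm9025 and 2742 of 3412 in Gm18194.

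**Figure D1:**
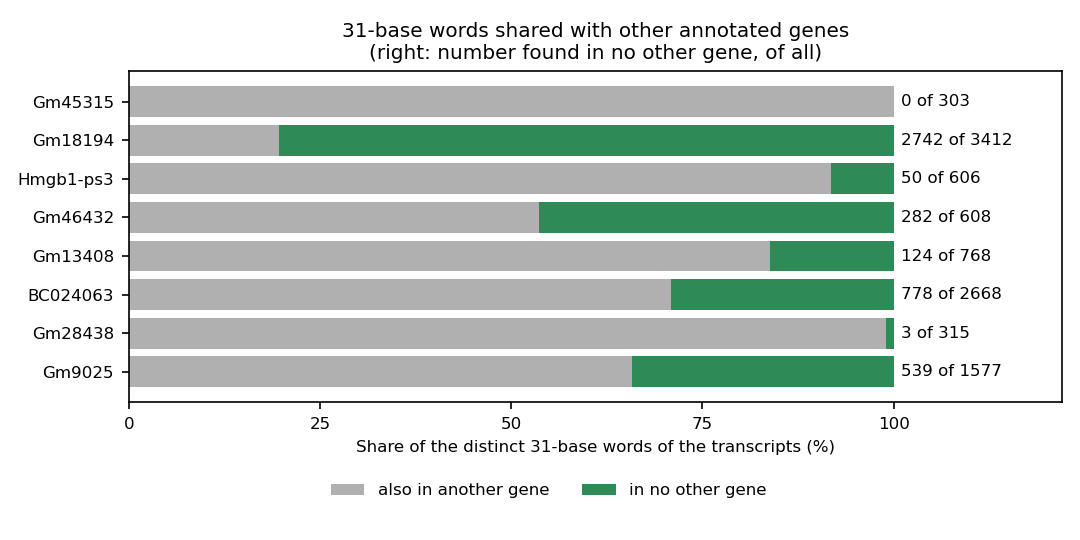
The horizontal bars give, for each of the 8 genes, the share in percent of its distinct 31-base words that also occur in another gene (grey) or in no other gene (green), with the number of own words at the right. Gm45315 has 0 own words and Gm28438 has 3 of 315, while Gm18194 has 2742 of 3412.

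Post-transplant, 6 of the 8 genes were higher in every TCF-1 cKO library than in any WT library, and these are the 6 chosen on that stage (edgeR, FDR below 0.1). Among all 16017 genes tested at that stage, 17.9% were called and 2.51% were called higher in TCF-1 cKO, and 27% were higher in TCF-1 cKO without overlap. Since the genes were picked on this contrast, nothing is read from their count. Without WT replicate 3, the library whose Tcf7 was low, all 6 were still called, with log2 fold changes from 4.78 to 9.79. Without TCF-1 cKO replicate 1, 2 or 3 or WT replicate 1, 0 of them were called, and without WT replicate 2 Gm45315 alone was, while their log2 fold changes stayed between 4.58 and 9.95. The number of all genes called moved likewise, rising without WT replicate 3 and falling to a few or none without any other library. These calls are therefore not particular to the members. In bulk RNA, fewer cells of a type and less RNA per cell cannot be told apart.

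**Figure D2:**
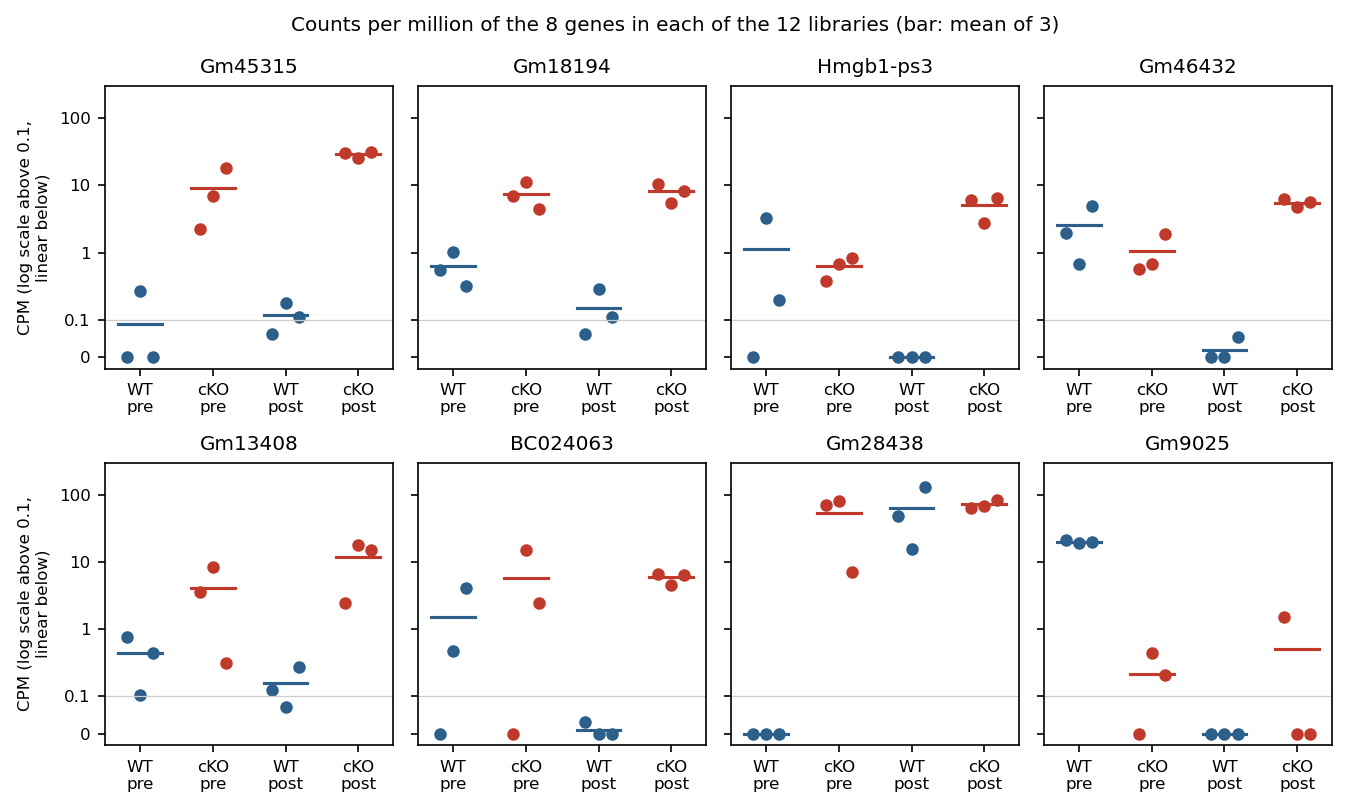
Each panel plots the CPM of 1 gene in the 12 libraries, with a point for each library, a bar for the mean of 3, WT in blue and TCF-1 cKO in red, on an axis that is logarithmic above 0.1 CPM and linear below. In 6 panels the post-transplant TCF-1 cKO points (at least 2.42 CPM) lie above the WT points (at most 0.285 CPM), in the Gm28438 panel the pre-transplant WT points are all at 0, and in the Gm9025 panel pre-transplant WT alone is near 20 CPM (19 to 20.9 CPM).

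Gm45315, the Hmgb1 copy inside Gm18194, was at 30.3, 25.7 and 31.8 CPM in post-transplant TCF-1 cKO libraries and at 0.0614, 0.178 and 0.11 CPM in WT. The WT libraries were at the level of a few counts, and the log2 fold change was 7.42 (SE 0.69). Before transplant, the stage not used to choose it, Gm45315 was at 2.28, 6.89 and 18.1 CPM in TCF-1 cKO and at 0, 0.265 and 0 CPM in WT. The groups did not overlap, but the TCF-1 cKO libraries differed from each other by several fold, and the log2 fold change of 6.53 (SE 1.63) missed the threshold (edgeR, adjusted p = 0.199, unadjusted p = 0.00156). Absence of overlap in this direction was found for 21.5% of the 18751 genes tested pre-transplant.

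Gm18194, the pseudogene on the other strand, rests on more words of its own. All its counts fell on its 3442-base transcript. It was at 10.6, 5.51 and 8.25 CPM in post-transplant TCF-1 cKO libraries against 0.0614, 0.285 and 0.11 CPM in WT, a log2 fold change of 5.13 (SE 0.83). Before transplant, the stage not used to choose it, it was at 6.84, 11.1 and 4.4 CPM in TCF-1 cKO and at 0.556, 1.01 and 0.32 CPM in WT. The order of the groups was the same as after transplant and they did not overlap, and the log2 fold change of 3.24 (SE 1.04) missed the threshold (edgeR, adjusted p = 0.215, unadjusted p = 0.00859). Gm18194 and Gm45315 share 303 words and overlap on the chromosome, so they are not separate observations.

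Hmgb1-ps3, on the chromosome of Tcf7, was at 6.14, 2.78 and 6.45 CPM in post-transplant TCF-1 cKO libraries and at 0 in all 3 WT libraries. The TCF-1 cKO mean was 42.2 times the mean WT floor, which is the CPM of 3 counts in a library. For TCF-1 cKO replicate 2 alone the ratio is lower, and it is no test at the stage of choice. Before transplant it was at 0.38, 0.667 and 0.839 CPM in TCF-1 cKO, which is near the floor of those libraries, and at 0, 3.23 and 0.2 CPM in WT. The groups overlapped, 61 of the 66 WT counts came from replicate 2, and the gene did not pass the filter on low counts.

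Gm46432 was at 6.25, 4.74 and 5.68 CPM in post-transplant TCF-1 cKO libraries, with 342 counts in all, and at 0, 0 and 0.0551 CPM in WT, with 1 count. The ratio of the summed counts per library total was 439, with a 95% counting interval from 78.3 to 17400. This interval covers counting error alone and not the spread between libraries, and it is no test at the stage that chose Gm46432. Before transplant the order was the other way in part, at 0.57, 0.667 and 1.89 CPM in TCF-1 cKO and at 1.95, 0.688 and 4.97 CPM in WT. These groups overlapped, and the log2 fold change was -1.59 (SE 1.25, adjusted p = 0.484 by edgeR).

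The difference in Hmgb1 itself was smaller than in these copies and did not pass the test at either stage. Hmgb1 was at 731, 524 and 696 CPM in post-transplant TCF-1 cKO libraries and at 253, 76.9 and 547 CPM in WT, with a log2 fold change of 0.88 (SE 0.53, adjusted p = 0.313 by edgeR). Pre-transplant the log2 fold change was -0.24 (SE 0.47, adjusted p = 0.786 by edgeR). Gm15387 and Gm21596, the copies that share the most words with Hmgb1-ps3, had post-transplant log2 fold changes of 1.46 (SE 0.57, adjusted p = 0.141 by edgeR) and 1.70 (SE 0.57, adjusted p = 0.0959 by edgeR). Of the 105 genes other than members that share at least 10% of the words of Hmgb1-ps3, a list drawn up after values had been seen that includes Hmgb1, Gm15387 and Gm21596, 11 were tested at each stage. Post-transplant 4 rose, Gm21596 among them, and 0 fell, where 2.51% of all genes were called higher and 15.4% lower. Their median log2 fold change was 1.46 against 0.15 over all genes. They share words with members picked at that stage, so their direction is not independent of the choice. Pre-transplant edgeR called 0, with 1 at an unadjusted p below 0.05, 1 called by the Wald test and 0 by voom. The median there was -0.09 against 0.05.

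When the counts of Gm45315, Hmgb1-ps3 or Gm46432 were summed with every gene that shares a word with them, each sum had a post-transplant log2 fold change of 1.25 (SE 0.53, adjusted p = 0.162 by edgeR). The sum for Gm18194 had 1.06 (SE 0.46, adjusted p = 0.173 by edgeR). These 4 sums hold mostly the same counts. Pre-transplant they lay between -0.08 and 0.06. Gm45315 made up 2.1%, 2.39% and 2.28% of the counts of its closer family (104 genes that share at least 10% of its words) in post-transplant TCF-1 cKO libraries and 0.0151%, 0.153% and 0.0133% in WT. The shares of TCF-1 cKO lay above those of WT in every library of both stages, with 7.28% as the highest, in TCF-1 cKO replicate 3 pre-transplant.

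**Figure D3:**
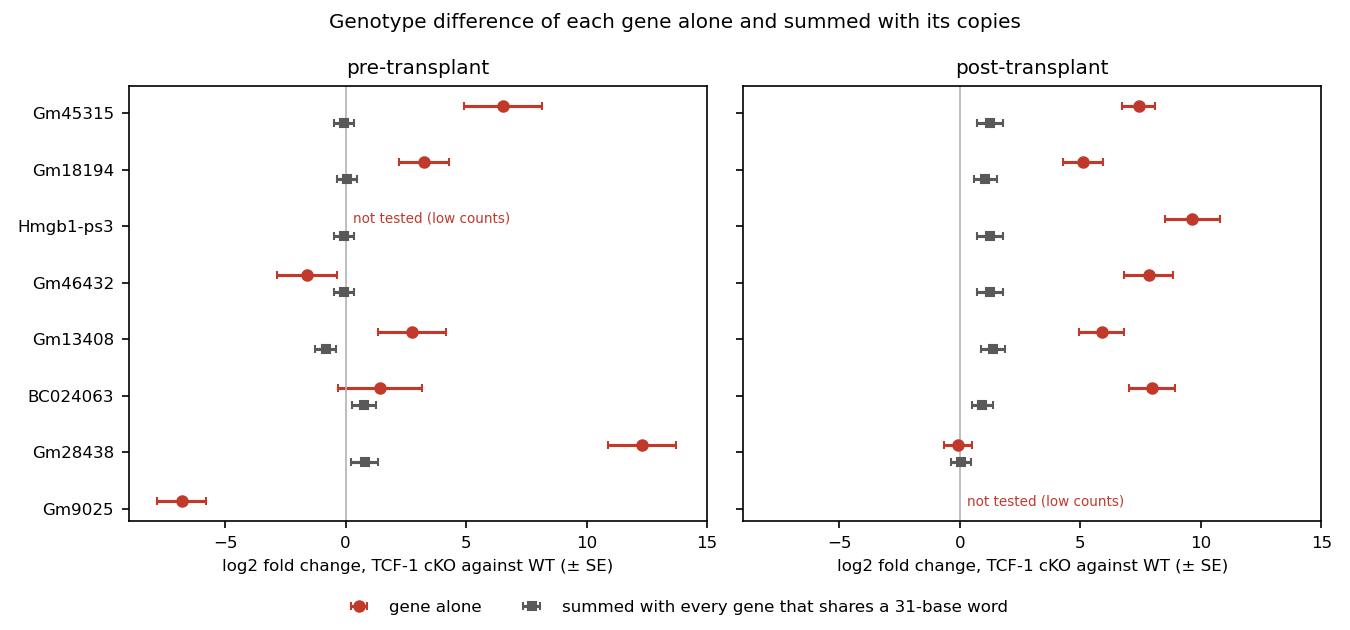
Log2 fold changes (TCF-1 cKO against WT, with SE) are plotted for each gene alone (red circles) and for its counts summed with every gene that shares a 31-base word (grey squares, not drawn for Gm9025), pre-transplant at the left and post-transplant at the right. Alone, the genes reach 12.31 and -6.81 pre-transplant and 9.65 post-transplant, while the sums lie between -0.83 and 0.79 pre-transplant and between 0.05 and 1.38 post-transplant.

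Gm13408, the Rps3a copy, was at 2.42, 17.7 and 15.2 CPM in post-transplant TCF-1 cKO libraries and at 0.123, 0.0711 and 0.276 CPM in WT. Replicate 1 was well below the other TCF-1 cKO libraries and still above WT, and the log2 fold change was 5.89 (SE 0.94). Before transplant it was at 3.61, 8.45 and 0.315 CPM in TCF-1 cKO and at 0.765, 0.106 and 0.44 CPM in WT. The groups overlapped through TCF-1 cKO replicate 3, and the log2 fold change was 2.75 (SE 1.4, adjusted p = 0.313 by edgeR).

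The gene that shares the most words with Gm13408, 528 of 768, is Rps3a2 (chr14:88123017-88123808), itself annotated as a processed pseudogene. Rps3a2 was at 748, 733 and 917 CPM in post-transplant TCF-1 cKO libraries and at 1.6, 1.14 and 3.25 CPM in WT, and at 272, 318 and 203 CPM against 0.348, 9.37 and 3.12 CPM pre-transplant. It was the one parent gene called at both stages, with log2 fold changes of 8.30 (SE 0.53, adjusted p = 0.0025 by edgeR) and 5.68 (SE 0.89, adjusted p = 0.0882 by edgeR). The coding gene Rps3a1 (chr3:86137940-86142702) was at 1480, 1460 and 1810 CPM post-transplant in TCF-1 cKO and at 654, 209 and 1420 CPM in WT, with a log2 fold change of 0.78 (SE 0.51, adjusted p = 0.341 by edgeR). Pre-transplant Rps3a1 was at 418, 476 and 246 CPM in TCF-1 cKO and at 1170, 613 and 1190 CPM in WT, and its log2 fold change of -1.77 (SE 0.46) missed the threshold (edgeR, adjusted p = 0.199).

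Of the 12 genes that share a word with Gm13408, 8 were tested post-transplant. Of these 5 rose, namely Rps3a2, Gm5586, Rps3a3, Gm7600 and Gm3508, where 2.51% of all genes were called higher. Gm13408 was picked at that stage and shares words with them, so their direction is not independent of the choice. Summed with these 12 genes, Gm13408 had log2 fold changes of -0.83 (SE 0.45, adjusted p = 0.332 by edgeR) pre-transplant and 1.38 (SE 0.5, adjusted p = 0.118 by edgeR) post-transplant. Gm13408 itself was a small part of that pool. With the 7 closest copies it made up 0.108%, 0.795% and 0.549% of the counts in post-transplant TCF-1 cKO libraries, and between 0.0187% and 0.0338% in WT.

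BC024063, the sole member annotated as protein coding, was at 6.63, 4.47 and 6.49 CPM in post-transplant TCF-1 cKO libraries, 364 counts in all, and at 0.0307, 0 and 0 CPM in WT, which is 1 count. The ratio of the summed counts per library total was 467, with a 95% counting interval from 83.3 to 18500. As for Gm46432, this interval leaves out the spread between libraries and is no test at the stage of choice. Before transplant BC024063 was at 0, 15.1 and 2.41 CPM in TCF-1 cKO and at 0, 0.476 and 4.12 CPM in WT. Each group held a library at 0 and the groups overlapped, with a log2 fold change of 1.44 (SE 1.75, adjusted p = 0.648 by edgeR) that turned to -0.61 without TCF-1 cKO replicate 2 and to -0.51 with an offset for GC content and length.

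Its relatives also varied between libraries of one genotype. Gm3055, which shares 1853 of 2668 words, was at 23.5, 6.89 and 0 CPM in pre-transplant TCF-1 cKO and at 9.42, 0.529 and 0.2 CPM in WT. Post-transplant Gm3055 was at 8.41, 1.09 and 8.98 CPM in TCF-1 cKO and at 0.584, 0.107 and 7.44 CPM in WT, with a log2 fold change of 1.07 (SE 1.22, adjusted p = 0.593 by edgeR). Summed with the 63 genes that share a word with it, BC024063 had log2 fold changes of 0.77 (SE 0.5, adjusted p = 0.401 by edgeR) pre-transplant and 0.93 (SE 0.43, adjusted p = 0.197 by edgeR) post-transplant. Its nearest neighbours Zfp873 and AU041133 were not called at either stage.

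Unlike the 6 genes above, Gm28438 and Gm9025 were taken as chosen pre-transplant. Their parting at that stage therefore belongs to the choice. The genotypes of Gm28438 overlapped post-transplant. Gm28438 was at 68.9, 81.6 and 7.03 CPM in pre-transplant TCF-1 cKO libraries and at 0 in all 3 WT libraries. The TCF-1 cKO mean was 411 times the mean WT floor, the CPM of 3 counts in a library. For TCF-1 cKO replicate 3 alone the ratio is far lower, and it is no test at the stage of choice. TCF-1 cKO replicate 3 was far below the other libraries of its group and still above WT. Pre-transplant, 7 of all 18751 genes tested were called (0.0373%), with 0.016% higher and 0.0213% lower in TCF-1 cKO. Gm28438 and Gm9025, the members chosen on that stage, were among them, and nothing is read from that count. At day 7, the stage not used to choose it, Gm28438 was at 63.5, 67.2 and 83.8 CPM in TCF-1 cKO and at 47.3, 15.4 and 130 CPM in WT. The WT libraries lay on both sides of the TCF-1 cKO libraries, and the log2 fold change was -0.09 (SE 0.59, adjusted p = 0.934 by edgeR). The difference between the stages was not tested.

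mt-Nd3, from which Gm28438 differs at 1 base, overlapped between the genotypes at both stages. It was at 32.7, 56 and 24.1 CPM in pre-transplant TCF-1 cKO and at 52.5, 23.7 and 41.2 CPM in WT (log2 fold change -0.44, SE 0.52, adjusted p = 0.636 by edgeR). Of the counts of both genes, Gm28438 held 67.9% (exact 95% binomial interval 63.7% to 71.8%), 59.3% (55.3% to 63.2%) and 22.6% (17.9% to 27.7%) in pre-transplant TCF-1 cKO. In WT it held 0 of 1509, 0 of 448 and 0 of 1029 counts, and the exact intervals reach up to 0.244%, 0.82% and 0.358%, while 3 counts, the floor used above, would be 0.199%, 0.67% and 0.292%. Post-transplant its share was 26.9%, 29.4% and 32.4% in TCF-1 cKO and 33.5%, 15.4% and 41.6% in WT. All libraries of that stage gave Gm28438 a part of the pool, and because PCR copies were not told apart from molecules, the intervals and floors do not go beyond counting error.

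The sum of Gm28438 and mt-Nd3 had log2 fold changes of 0.79 (SE 0.55, adjusted p = 0.436 by edgeR) pre-transplant and 0.05 (SE 0.41, adjusted p = 0.942 by edgeR) post-transplant. The next pseudogene along the chromosome, Gm28437, was at 70.6, 104 and 19.1 CPM in pre-transplant TCF-1 cKO and at 69.1, 148 and 27.2 CPM in WT. It was not called (log2 fold change -0.66, SE 0.63, adjusted p = 0.559 by edgeR), and Gm10222 on the other side had 0 counts in all 12 libraries.

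Gm9025 was the one member called lower in TCF-1 cKO (edgeR, pre-transplant). Before transplant it was at 20.9, 19 and 19.7 CPM in WT and at 0, 0.445 and 0.21 CPM in TCF-1 cKO, 1451 counts against 4. The WT libraries were close to each other, the TCF-1 cKO libraries held at most 2 counts each, and the log2 fold change was -6.81 (SE 1.01). Of all genes tested at that stage, 6.34% were lower in TCF-1 cKO without overlap. At day 7 it was at 1.51, 0 and 0 CPM in TCF-1 cKO and at 0 in all WT libraries, and all 28 counts of that stage came from TCF-1 cKO replicate 1. It did not pass the filter on low counts there. The summed level of 5 myeloid markers was 1200 to 3110 CPM pre-transplant and 54.6 to 188 CPM post-transplant, and its part in the level of Gm9025 was not tested.

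**Figure D4:**
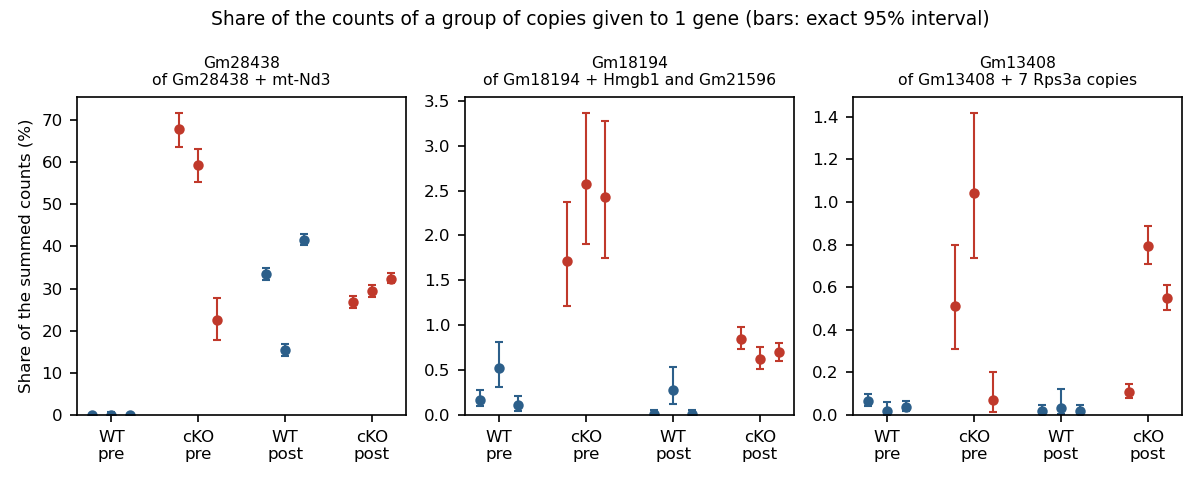
The points give, in percent with exact 95% binomial intervals, the share of the summed counts of a group of copies that was given to 1 gene in each library, for Gm28438 with mt-Nd3, Gm18194 with Hmgb1 and Gm21596, and Gm13408 with 7 Rps3a copies (WT blue, TCF-1 cKO red, each axis with its own range from 0). Gm28438 goes from 0 in pre-transplant WT to 67.9% in pre-transplant TCF-1 cKO.

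At the stage not used for the choice, 6 members could be tested, and edgeR called 0 of them at an FDR below 0.1. That stage is by definition the one with the larger p of each gene, so a low number of calls there is no independent check. Gm45315 and Gm18194 had an unadjusted p below 0.05 pre-transplant, as did 3324 of all 18751 genes tested. The Wald test of DESeq2 called these 2, in a fit that called 1429 of the 18751 genes. Without the filter on low counts edgeR called Gm45315 pre-transplant (log2 fold change 6.36), in a fit that called 622 of 32095 genes. On log2(TPM + 1) limma called Gm45315 alone, in a fit that called 350 of 17538 genes, and limma-voom called 0. In 1 fit over all 12 libraries edgeR called Gm9025 post-transplant, from counts in 1 library. The groups did not overlap for Gm45315 and Gm18194, the overlapping pair on chromosome 7, and overlapped for the others. Of all genes tested pre-transplant, 21.5% were higher in TCF-1 cKO without overlap.

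Among genes that share words with the members, 224 were listed and 77 were tested at each stage. Post-transplant 11 rose and 0 fell, where 2.51% of all genes were called higher and 15.4% lower. The median log2 fold change was 0.96 against 0.15 over all genes. These genes share words with members picked for being higher at that stage, so their direction is not independent of the choice. A gene near 0 in WT can also pass the filter on low counts through TCF-1 cKO alone. Pre-transplant Rps3a2 rose and 0 fell, where 0.016% of all genes were called higher and 0.0213% lower, with a median of 0.69 against 0.05. Of the 8 genes that share the most words with a member, 7 were tested, and those called were Rps3a2 at both stages and Gm18194, itself a member, post-transplant. Genes of a pseudogene biotype were called higher in 82 of 1265 cases and lower in 34 post-transplant, and in 2 and 1 of 1762 pre-transplant, to be read against the same shares over all genes. Their median log2 fold changes were 1.3 pre-transplant, against 0.05 over all genes, and 0.43 post-transplant, against 0.15. Genes named Gm and a number gave 75 higher and 30 lower of 1327 post-transplant and 1 each of 1749 pre-transplant. Both lists still hold the members, which were picked on these contrasts. Pre-transplant the Gm genes called were Gm28438 and Gm9025 themselves, and the pseudogenes called were these and Rps3a2.

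Within 100 kb of a member 20 genes were tested pre-transplant and 18 post-transplant, and edgeR called 0 at either stage. An unadjusted p below 0.05 was found for 2 of them pre-transplant and 0 post-transplant, the Wald test of DESeq2 called 2 and 0, and voom called 0 and 1. Among the nearest or overlapping genes, 9 pre-transplant and 8 post-transplant passed the filter on low counts, with log2 fold changes from -1.12 to 1.44, and 0 had an unadjusted p below 0.05 in edgeR or were called by the other tools. Within 5 Mb of Tcf7, edgeR called 0 of 128 genes pre-transplant, where 27 had an unadjusted p below 0.05 (3324 of all 18751 genes did) and the Wald test called 11 and voom 0. Post-transplant 1 was called higher and 10 lower of 107, where 2.51% and 15.4% of all genes were, and the Wald test called 23 and voom 12.

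The TPM values that Kallisto gave the members, scaled for transcript length, are means of 3 libraries with SD. They are shares of pools of common reads, so their order need not be that of RNA made at each locus. This holds most for Gm45315 and Gm28438, which have few or no words of their own. In post-transplant TCF-1 cKO, Gm28438 was highest at 337 ± 46.2 TPM and Gm45315 next at 146 ± 17 TPM. Gm13408 (14.6 ± 10.1 TPM), Gm46432 (9.68 ± 1.46 TPM) and Hmgb1-ps3 (8.99 ± 3.57 TPM) did not differ beyond their spread, nor did Gm18194 (1.74 ± 0.545 TPM) and BC024063 (1.63 ± 0.32 TPM). In post-transplant WT, Gm28438 was at 335 ± 268 TPM and every other member was below 0.6 TPM on average.

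Over the 12 libraries the gene most like Gm18194 in log2(CPM + 1) was Rps3a2 (Pearson's r = 0.959), which was also most like Gm45315 (r = 0.934). The closest to Gm28438 was Hist1h1d (r = 0.95) and to Gm9025 Pnck (r = 0.963), and none of these pairs shares a word. These coefficients describe 12 libraries that fall into 4 groups and share their depth and cell makeup.

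The members were mostly poor in GC, and the genotype difference went with GC content across all genes (Spearman's rho across genes -0.259 pre-transplant and -0.55 post-transplant; genes are not independent replicates). By GC content of all genes tested, 7 members fell in the lowest 4 of 10 equal bins, where the median post-transplant log2 fold change was 0.53 to 0.8, and Gm9025, at 52.8% GC, fell in bin 7. With an offset for GC content and length, the 6 members chosen post-transplant had log2 fold changes from 3.95 to 9.36 and 2 chosen pre-transplant had -7.39 and 10.78.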

How the data were processed

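RNA was measured in 12 libraries of sorted mouse CD8 T cells, grouped by their titles. The authors made cDNA with SMART-Seq HT and Nextera XT kits, pseudoaligned paired reads with Kallisto (version 0.46.2 in the submitters' processing notes, which name the build mm9), and deposited estimated counts (expected counts) for each of 117497 transcripts. The TPM values, scaled for length and depth, were also deposited by the authors. The transcript release is not given in the sources used here. Transcripts were joined to GENCODE M21 (GRCm38) without version numbers, since versions differed for 116361 of 116374, and summed by symbol. The 8 genes, the gene lists and the tests were chosen with earlier results of these data known.

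Gene sums were rounded and tested within each stage by edgeR 4.0.16 (TMM, filterByExpr, quasi-likelihood, Benjamini-Hochberg over all genes tested, FDR 0.1). CPM values use library totals, while fold changes are TMM-normalized and each is TCF-1 cKO against WT. Standard errors were taken from the fold change and the F statistic. The stage with the smaller p of a gene was taken as the one that chose it. Words of 31 bases were compared on both strands among M21 transcripts, and the parent was the gene sharing most. Alignments used Biopython 1.88, and intervals SciPy 1.17.1 (Clopper-Pearson). On simulated data with 200 genes given a log2 change of 4, edgeR recovered 70.5% of those tested pre-transplant and 75.4% post-transplant.

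Genes named are the 8 members, Tcf7, each member's parent, up to 3 more genes by shared words, the nearest genes on each side, and up to 2 most correlated genes. Rps3a3 and Gm3508 were named after their values were seen. Alternatives were DESeq2 1.42.0 size factors and Wald test, library totals, limma 3.58.1 (voom, and trend on log2(TPM + 1)), other filters, an FDR of 0.05, a replicate block, a loess offset for GC content and length (span 0.4), both together, 1 fit over all libraries, each library left out, and sums of copies. Thinning to the smallest total and sums over genes with 10% of the words were added after seeing the data. Reads, protein sequences and a genome sequence were not used here. Results for 1 relative of Gm9025 are not reported here.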

Additional observations from a re-analysis of the deposited data

Results flagged for a closer look

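Among the relatives named here that share words with the members, 2 had groups that parted in opposite directions at the 2 stages. The difference between the stages was not tested. Of all genes tested, 6.34% were lower in TCF-1 cKO without overlap pre-transplant and 27% were higher without overlap post-transplant. How many of all genes did both was not counted, and nothing is read from the number of relatives. Gm15387, the copy closest to Hmgb1-ps3, had a log2 fold change of -2.52 (SE 1.36) pre-transplant, with 0, 0 and 17.8 CPM in TCF-1 cKO against 22.9, 52.6 and 20.3 CPM in WT. Post-transplant it had 1.46 (SE 0.57), with 110, 135 and 134 CPM against 33.7, 9.82 and 71.4 CPM. Rps3a1, a coding relative of Gm13408, had -1.77 (SE 0.46) pre-transplant and 0.78 (SE 0.51) post-transplant. None of these 4 values passed an FDR of 0.1 in edgeR.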

How the results depend on the processing

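Pre-transplant, 2 members (Gm28438 and Gm9025) and 1 parent gene (Rps3a2) were called. The number of members called was 1 with DESeq2 size factors, with 1 fit over all 12 libraries, at an FDR of 0.05 and with libraries thinned, 4 with the Wald test of DESeq2, 3 (Gm45315 added) without a filter and with limma on log2(TPM + 1), and 0 with limma-voom, the replicate block and both kinds of summed copies. The number of parents was 0 with DESeq2 size factors, the replicate block and an FDR of 0.05, and 2 with the Wald test and without a filter. Leaving out each library gave 0 to 2 members and 0 to 2 parents; 0 members were called without TCF-1 cKO replicate 2 or WT replicate 2 or 3. Post-transplant, 6 members and 2 parents were called. With the replicate block and the GC content and length offset together 0 members and 1 parent were, and with both kinds of summed copies 0 members. Leaving out each library gave 0 to 6 members and 0 to 5 parents, 5 of them without WT replicate 3. A sum of copies holds the counts of the relatives, of which some members are a small part, so a call lost there is not one of the member alone. These fits tested different numbers of genes, and the cause of the other changes was not tested.

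The sign of a log2 fold change turned in 15 cases. For Gm28438 post-transplant (-0.09) it was 0.16 with library totals, 0.19 with voom, 0.39 on log2(TPM + 1), 0.18 with the replicate block, 0.08 with 1 fit over all libraries, 0.57 without WT replicate 3 (leaving out each library gave -0.52 to 0.57) and 0.05 with either sum of copies. Pre-transplant, BC024063 turned to -0.51 with the offset and -0.61 without TCF-1 cKO replicate 2 (-0.61 to 4.26 over the libraries left out), and sums over all and over the closer copies gave -0.07 and -0.19 for Gm45315 and -0.83 and -0.99 for Gm13408. The sum over closer copies gave -0.08 for Gm18194. Of the other fold changes, 190 kept their direction and side of the threshold, 65 lost the call and 4 gained it. All these counts include the sums of copies, which are values of a pool and not of a member alone. Gm9025 post-transplant was tested in 2 alternatives and called in 1 fit over all 12 libraries (log2 fold change 6.88; edgeR, adjusted p = 0.0738), from counts in 1 library.

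Deviations of same-numbered libraries correlated at 0.0556, -0.081 and 0.00325 pre-transplant, within the range of other pairs (-0.128 to 0.114). Post-transplant they correlated at 0.134, 0.0638 and 0.155, above all other pairs (-0.139 to 0.0213). Whether replicate numbers pair the libraries was not tested, and the reported fit holds no replicate block. Depth limits the pre-transplant TCF-1 cKO group most, where 3 counts are 0.315 to 0.667 CPM. Library totals moved the median log2 fold change of all genes from 0.05 to 0.39 pre-transplant and from 0.15 to 0.54 post-transplant. The number of all genes called pre-transplant, 7 in the reported fit, ranged with all libraries from 0 with the replicate block to 1429 with the Wald test, and over the libraries left out from 0 (without TCF-1 cKO replicate 2 or WT replicate 2 or 3) to 2739 (without TCF-1 cKO replicate 3). Post-transplant, 2868 in the reported fit, it ranged from 2 with block and offset to 4523 with the Wald test, and over the libraries left out from 0 (without WT replicate 1) to 5296 (without WT replicate 3), with 1 or 2 without each of the others.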
